A study of Homo sapiens with 24 samples.

Results

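The comparison described here asked whether HAP1 cells of the HRI line answered lomustine differently from cells of the lines GCN2, PKR and PERK, and it used 10 of the 24 arrays of the series. The contrast was the change with lomustine in the HRI line minus the mean change over the other 3 lines, and it is called the interaction below. HAP1 is a near-haploid human line derived from the leukaemia line KBM-7, and total RNA was hybridised to an Affymetrix expression array. The HRI line had 2 arrays with lomustine and 2 without drug. GCN2, PKR and PERK had 1 array in each of these arms, so each of those lines gave 1 difference. Lomustine was given at 200 µM for 2 h. All the kinase lines came from a commercial supplier, each is named for the eIF2-alpha kinase it lacks, and whether each is 1 clone is not stated in the sources used here. Since every line in the contrast lacks 1 kinase, the comparison sets loss of HRI against loss of another kinase and not against an intact line. Arrays of the parental line (PAR) and of S51A, a line whose eIF2-alpha cannot be phosphorylated at the stress site, stayed out of the contrast. They served as values beside it, in the filter on dim genes and in alternative settings, and PAR also gave a set of response genes. Each line also had 1 array titled SA100, which stayed out of the contrast too. Title and treatment text point to sodium arsenite for it, at 100 µM for 2 h. The labels do not say whether repetitions A and B were separate cultures, so p-values measure the spread between these arrays only.

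HRI, PKR, PERK and GCN2 are encoded by EIF2AK1, EIF2AK2, EIF2AK3 and EIF2AK4, and each phosphorylates the translation initiation factor eIF2-alpha in answer to its own kind of stress. Phosphorylated eIF2-alpha lowers general translation and raises that of a few messages, among them that of the transcription factor ATF4. ATF4 and its partner CHOP (the gene DDIT3) then activate genes of amino acid supply, redox balance and cell fate, a program known as the integrated stress response. HRI is known for its answers to heme shortage, to arsenite and, through the protein DELE1, to mitochondrial stress. Lomustine is a nitrosourea that alkylates and crosslinks DNA.

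The results turn on 2 groups of genes, ATF4 and CHOP targets and immediate-early genes, and the promoters of CHAC1 and EGR1 are shown as their leading members. The sequences are RefSeq's for GRCh38.p14, from 250 bases before to 50 after the start of the gene, 5′ to 3′ on the gene's strand. Capitals mark a match to TGATGNAA, the core of the element that ATF4 binds with a C/EBP partner, searched on both strands, in CHAC1, and 2 CArG boxes, the element bound by serum response factor, in EGR1. None of the windows shown holds both motifs.
CHAC1 chr15:40953221-40953520 (+ strand): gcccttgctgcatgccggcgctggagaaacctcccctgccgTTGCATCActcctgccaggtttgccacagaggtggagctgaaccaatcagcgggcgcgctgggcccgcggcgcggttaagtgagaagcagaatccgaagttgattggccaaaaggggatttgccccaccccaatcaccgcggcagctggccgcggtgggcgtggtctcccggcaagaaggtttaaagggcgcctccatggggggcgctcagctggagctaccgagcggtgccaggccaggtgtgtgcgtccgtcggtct
EGR1 chr5:138465229-138465528 (+ strand): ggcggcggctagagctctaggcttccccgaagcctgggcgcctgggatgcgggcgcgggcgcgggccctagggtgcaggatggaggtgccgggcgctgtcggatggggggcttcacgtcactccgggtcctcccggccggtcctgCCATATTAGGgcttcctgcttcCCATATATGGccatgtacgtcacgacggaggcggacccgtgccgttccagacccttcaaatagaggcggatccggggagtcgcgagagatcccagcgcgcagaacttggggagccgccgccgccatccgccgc
The CHAC1 match lay on the opposite strand with its first base 209 bases before the start, and the EGR1 boxes began 105 and 83 bases before it. Shorter stretches around the match are given for 3 further ATF4 targets described below.
ATF3 chr1:212565186-212565253 (+ strand): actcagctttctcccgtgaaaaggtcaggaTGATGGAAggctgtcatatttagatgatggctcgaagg
ASNS chr7:97872439-97872506 (- strand): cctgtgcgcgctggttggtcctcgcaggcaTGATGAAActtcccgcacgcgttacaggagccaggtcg
HERPUD1 chr16:56931936-56932003 (+ strand): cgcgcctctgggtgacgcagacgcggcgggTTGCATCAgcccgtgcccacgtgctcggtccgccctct
TGATGNAA was present in 3.62% of the 35116 promoter windows and in 3.03% of the 12735 tested genes that had one. Of 31 genes with a window on the list of ATF4 and CHOP targets, 10 (32.3%) held it: ASNS, ATF3, CEBPG, CHAC1, FGF21, HERPUD1, JDP2, SLC1A5, SLC3A2 and SLC7A1. Their interactions ran from -1.77 in CHAC1 to 0.26 in FGF21, on the log2 scale. A CArG box was present in 1.29% of all windows and in 1.59% of the tested genes that had one. Among genes with a window, 2 of 30 on the immediate-early list held a CArG box, and 0 of the 31 ATF4 and CHOP targets did. A match describes the letters of the window and is no evidence of binding in these cells.

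Of 22109 genes with a probe set, 17339 were tested and 4770 were too dim. The 10 arrays were not equally alike. In HRI without drug A and HRI lomustine B, 2.83% and 2.67% of genes differed by over 1 on the log2 scale from the other arrays' median, against 0.34% to 0.84% in the other 8. One of these arrays lies in each arm. HRI lomustine B correlated better with HRI no drug A (r = 0.982) than the untreated HRI arrays did with each other (r = 0.968). Interactions without both arrays are given beside many of the genes below. The arrays of PAR and S51A were not compared in this way, which limits their values below. With lomustine, EIF2AK1 had 7.51 and 7.96 in PAR and 7.76 and 6.92 in S51A. How many genes differed so between repetitions was not counted. With PAR in place of the other lines, the median interaction over all genes was 0.095, against -0.001 in the contrast. The targeted transcript was not lower in its line: EIF2AK1 (probe set 17054950) had 7.84 and 7.60 with lomustine and 7.49 and 7.80 without drug in HRI, within or near the 7.69 to 7.82 of the other lines. A probe set outside the altered part of a gene does not check a knockout, and where the probes lie relative to the mutation is not given in the sources used here. The lists of marker genes of blood cells, epithelium and fibroblasts (11, 10 and 8 genes on the array) averaged 2.30 to 2.81 in the HRI arrays, near the median of all values on the arrays, 2.42. Of these genes, 5, 6 and 2 had a mean at or above that median; they ran from 1.58 (HBB, a globin) to 3.98 (GATA1, a factor of red cell precursors) in the blood list, and COL1A1, a collagen of fibroblasts, had 4.04. The part of such cells in the results was not tested.

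No gene passed the test of the interaction. With limma and Benjamini-Hochberg adjustment over the 17339 genes, 0 (0%) had an adjusted p under 0.05. At an unadjusted p under 0.05 there were 430, of which 188 (1.08% of genes tested) had a larger change in HRI and 242 (1.4%) a smaller one. The count stayed at 0 under all 19 alternative settings. The response of the HRI line alone also gave 0 (0%) genes, with 620 at an unadjusted p under 0.05 and a smallest adjusted p of 0.0545 (EGR1). Over GCN2, PKR and PERK, 9 genes (0.0519%) rose and 1 (0.00577%) fell. The median standard error of the interaction was 0.28, on the log2 scale, so a difference has to be large to be seen. The counts of the HRI and other-line responses moved by more than 1.5 times without the arrays that stand apart, to 2 and 46.

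CHAC1 (probe set 16799739), which encodes a glutathione-degrading enzyme and is a target of ATF4, had the smallest p of all genes in the interaction. Its level was 5.71 and 5.96 in HRI with lomustine, and 5.06 and 4.80 in HRI without drug. With lomustine it was 8.0 in GCN2, 7.21 in PKR and 7.22 in PERK, against 5.33, 4.68 and 4.42 in the same lines without drug. Untreated levels of HRI lay within those of the other lines, and the lomustine levels of HRI lay below all 3 of theirs. The change was 0.90 (SE 0.19; 1.87-fold) in HRI and 2.67 (SE 0.15; 6.37-fold) over the other lines. In GCN2, PKR and PERK it was 2.67, 2.54 and 2.81, so these lines differed from each other by far less than from HRI. The interaction was -1.77 (SE 0.24, 95% interval -2.31 to -1.22; limma unadjusted p = 5.32e-05), which missed the threshold after adjustment over all genes (adjusted p = 0.922). Without the arrays that stand apart it was -1.76 (adjusted p = 0.580), and over all alternatives it ran from -1.90 to -1.47, with adjusted p-values from 0.135 to 1. In PAR, CHAC1 had 6.89 and 8.17 with lomustine and 5.08 and 5.23 without drug, a change of 2.37. In S51A it had 5.21 and 5.30 with lomustine and 5.27 and 4.81 without drug, a change of 0.22. The change in HRI thus lay above that of S51A and below those of PAR, GCN2, PKR and PERK. With PAR in place of the other lines the interaction was -1.47.

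**Figure D1:**
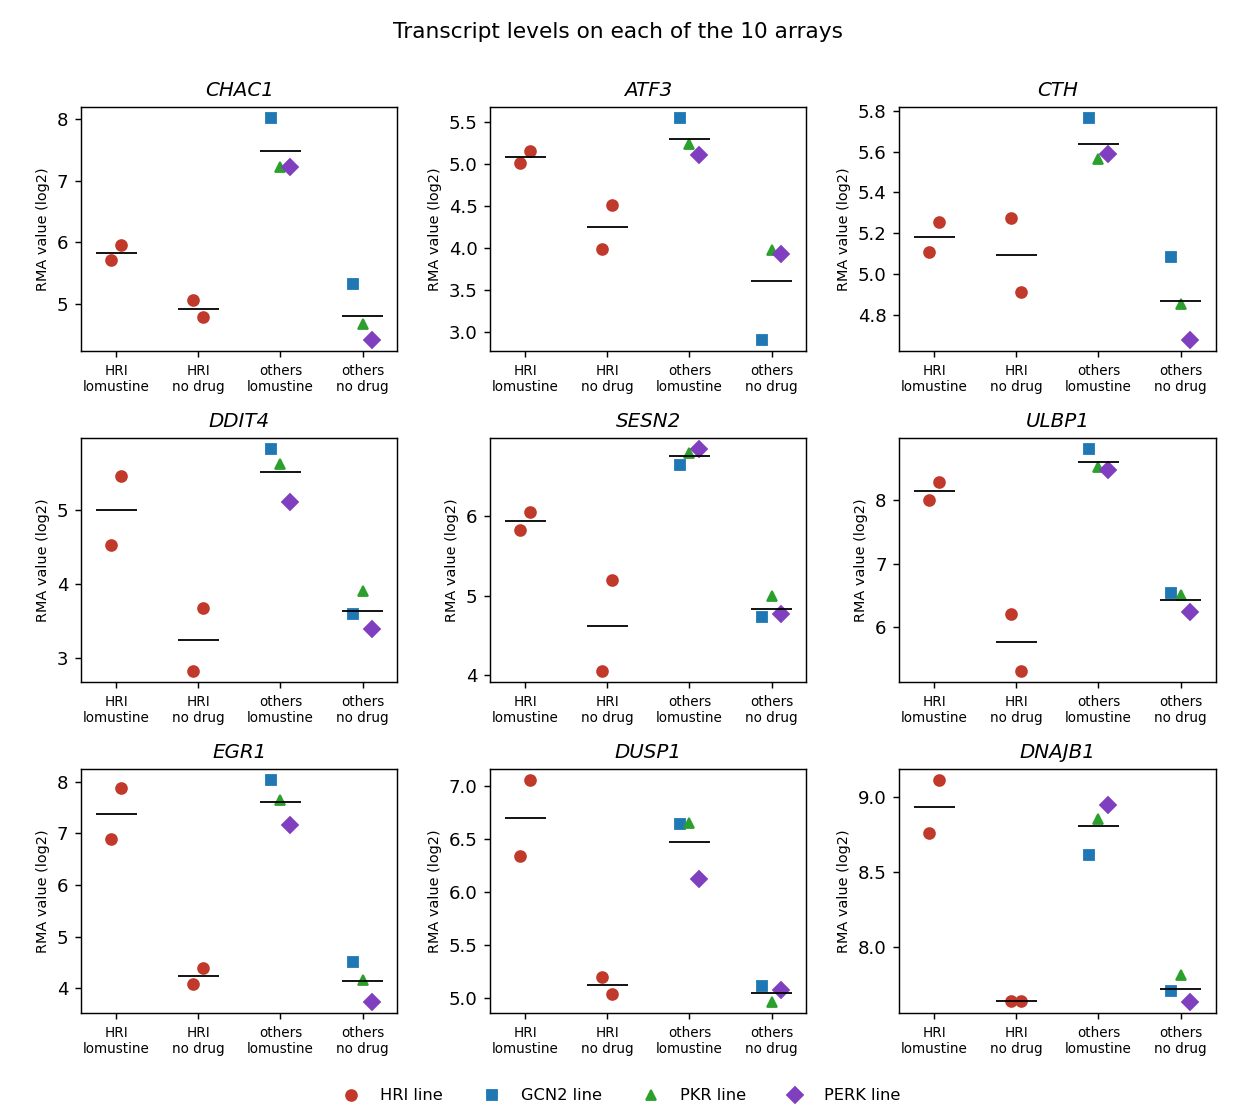
RMA values (log2, y axes) of 9 genes on each of the 10 arrays, by line and arm (x axes); bars are group means and symbols mark the lines. In HRI with lomustine, CHAC1 lies at 5.71 and 5.96, below the 7.21 to 8.0 of the other lines. EGR1 has 6.89 and 7.88 there, against 7.17 to 8.04 in the other lines, so 1 array lies below all of theirs. DNAJB1 has 8.76 and 9.11, against 8.61 to 8.95, so 1 array lies above all of theirs.

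The list of ATF4 and CHOP targets had 38 genes, of which 36 were tested, and it holds CHAC1. No member passed the interaction test. Of the 36, 26 (72.2%) had an interaction below 0, against 50.1% of all genes tested. The list's median was -0.15, against 0.00 over all genes (-0.001 before rounding). In 7 members (19.4%) all 4 differences between an HRI lomustine and an HRI untreated array lay below the differences of all 3 other lines, against 4.95% of all genes; these were CHAC1, JDP2, ATF3, CTH, ASNS, PHGDH and SLC7A1. In 0 members did all 4 lie above, against 4.51% of all genes. The median change was 0.07 in HRI and 0.21 over the other lines, beside 0.34 in PAR and -0.02 in S51A. Over all genes tested the median changes were -0.02, -0.01, -0.09 and -0.10 in the same order. A change above 1 was seen in 2 members in HRI and in 6 over the other lines. How many of all genes had such a change was not counted. The shares below 0 were higher in NF-kB targets (81.3%), interferon response genes (80% of 10) and NRF2 targets (76.2%). Members of a list are not independent of each other, and the list was chosen with results of these data known.

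**Figure D2:**
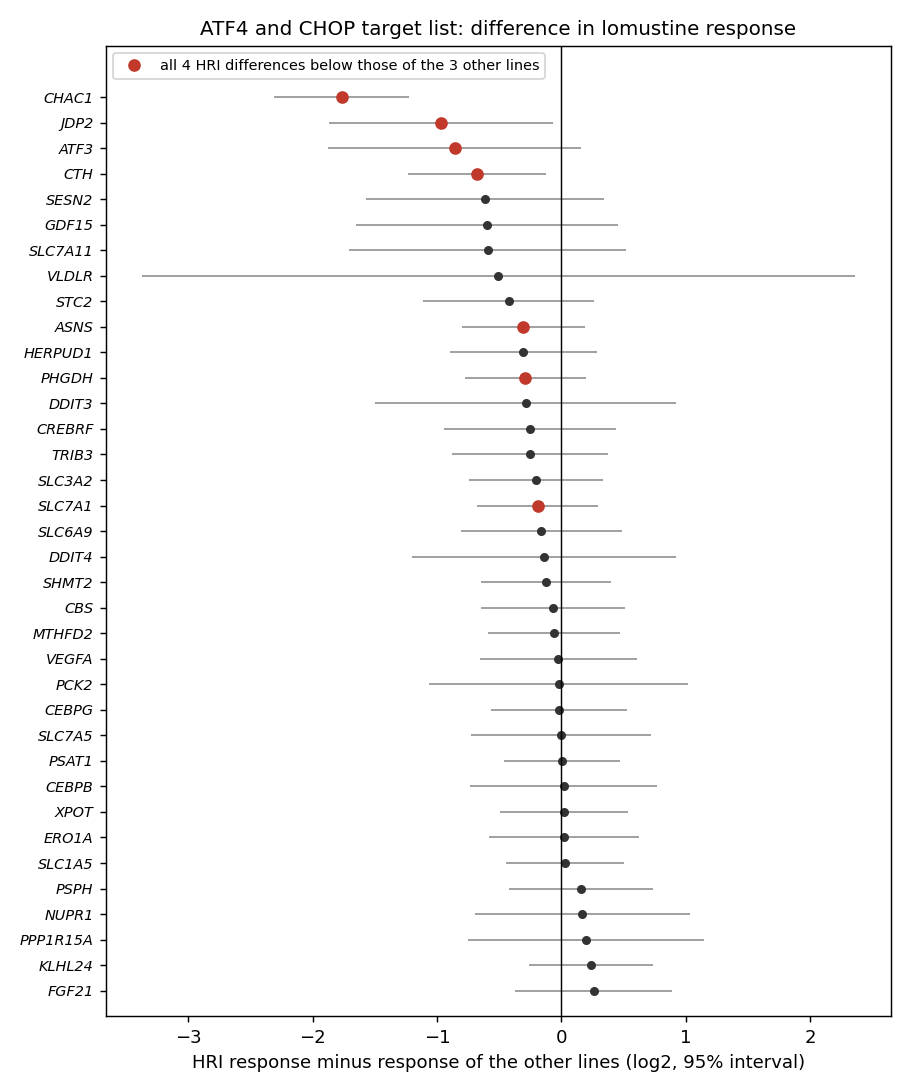
Interaction (x axis, log2, HRI change minus mean change of GCN2, PKR and PERK) with its 95% interval for the 36 tested ATF4 and CHOP targets (y axis). Red points are the 7 genes whose 4 HRI differences lay below those of all 3 other lines; 26 of 36 points lie left of 0, and CHAC1 is lowest at -1.77.

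Among the transcription factors of this program, ATF3, a stress-induced repressor and activator, had 5.01 and 5.15 in HRI with lomustine against 3.98 and 4.51 without drug. It had 5.54, 5.24 and 5.11 in GCN2, PKR and PERK with lomustine, against 2.90, 3.98 and 3.93 without drug. The levels with lomustine overlapped, and GCN2 without drug was the lowest array. The interaction was -0.86 (95% interval -1.88 to 0.16; limma adjusted p = 1). It was -0.39 without the GCN2 line and -1.19 without the HRI arrays that stand apart. JDP2, a dimerisation partner of JUN that represses AP-1, had 2.80 and 2.72 in HRI with lomustine against 2.95 and 3.90 without drug. Its interaction of -0.97 depended on which untreated HRI array was used, at -0.49 without B and -1.44 without A. It was -1.40 without the arrays that stand apart, which include untreated A. In the other lines it had 3.51, 3.90 and 3.15 with lomustine against 3.29, 3.19 and 3.19 without drug. DDIT3, which encodes CHOP, had 2.75 and 3.98 in HRI with lomustine against 3.06 and 2.16 without drug, and the arms overlapped. Its interaction was -0.29 (95% interval -1.50 to 0.92), -0.46 without the arrays that stand apart and 0.33 without HRI lomustine A. With PAR in place of the other lines it was -1.22, as the change was 1.98 in PAR and 0.75 in HRI. Untreated levels of DDIT3 in GCN2, PKR and PERK were 2.35, 1.97 and 2.13, below the median of all values. ATF4 itself, which is controlled largely through translation, had a change of 0.07 in HRI and of 0.32 over the other lines (interaction -0.25, 95% interval -0.77 to 0.26).

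Genes of amino acid supply differed in their changes, and CTH had a change of 0.77 over the other lines against 0.09 in HRI. CTH, which makes cysteine from cystathionine, had 5.11 and 5.26 in HRI with lomustine against 5.27 and 4.91 without drug. In GCN2, PKR and PERK it had 5.76, 5.56 and 5.59 with lomustine against 5.08, 4.85 and 4.67 without drug. The HRI arms overlapped, while every treated array of the other lines lay above every untreated one. The interaction was -0.68 (95% interval -1.23 to -0.13; limma unadjusted p = 0.0215, adjusted p = 1), and -0.57 without the arrays that stand apart. ASNS, asparagine synthetase, had 5.97 and 5.88 in HRI with lomustine against 5.49 and 5.45 without drug, and its arms did not overlap. Over the other lines its change was 0.77 against 0.46 in HRI, and the interaction of -0.31 had an interval from -0.80 to 0.19. PHGDH, the entry enzyme of serine synthesis, had an interaction of -0.29, and SLC7A1, a transporter of cationic amino acids, of -0.19. SLC7A11, the cystine transporter, had -0.59 (-0.36 without the arrays that stand apart) with overlapping arms in HRI (6.95 and 7.66 with lomustine, 7.95 and 6.77 without drug). PSAT1 and SLC7A5, of serine synthesis and leucine uptake, had changes of 0.05 or less in HRI and in the other lines.

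DDIT4 and SESN2 were the members with a change above 1 in HRI. DDIT4, an inhibitor of mTOR complex 1, had 4.53 and 5.47 in HRI with lomustine against 2.82 and 3.67 without drug. In GCN2, PKR and PERK it had 5.83, 5.63 and 5.11 with lomustine against 3.59, 3.91 and 3.39 without drug. Its change was 1.75 in HRI and 1.89 over the other lines, beside 3.04 in PAR and 0.33 in S51A. The interaction of -0.14 had a wide interval, -1.20 to 0.92, and it was -1.04 without the arrays that stand apart and 0.33 without HRI lomustine A. SESN2, a stress-induced regulator of mTOR signalling, had 5.83 and 6.06 in HRI with lomustine against 4.05 and 5.20 without drug, and 6.65, 6.80 and 6.84 against 4.73, 5.00 and 4.77 in the other lines. Its lomustine levels in HRI lay below those of the other 3 lines. The interaction was -0.61 (95% interval -1.57 to 0.34) and depended on which untreated HRI array was used, from -1.30 without the arrays that stand apart to -0.04 without HRI no drug B. HERPUD1, a part of the machinery that degrades misfolded proteins of the endoplasmic reticulum, had -0.30, and -0.61 without the arrays that stand apart. PPP1R15A, which brings a phosphatase to eIF2-alpha, had 0.20, and -0.04 without them. VLDLR, a lipoprotein receptor, had the widest interval of the list, -3.37 to 2.36: its levels were 2.90 and 5.39 in HRI with lomustine and 6.11 and 3.02 without drug, high on both arrays that stand apart. Without these the interaction was -0.21.

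ULBP1 (probe set 17013657), a ligand of the NKG2D receptor of natural killer cells, is set beside CHAC1 because it too was among the genes highest with lomustine in PAR and had a small change in S51A. It had 8.0 and 8.28 in HRI with lomustine against 6.21 and 5.31 without drug. The lines GCN2, PKR and PERK had 8.80, 8.52 and 8.48 with lomustine against 6.54, 6.50 and 6.24 without drug. In all 4 kinase lines, treated arrays lay above untreated ones. The change was 2.38 in HRI, 2.17 over the other lines (limma adjusted p = 0.0215), 2.31 in PAR and 0.34 in S51A. The interaction was 0.21 (95% interval -0.62 to 1.04). It was 0.52 without the arrays that stand apart and ran from -0.24 without HRI no drug B to 0.66 without HRI no drug A. The HRI line thus had a ULBP1 change near that of PAR, and a CHAC1 change of 0.90 beside 2.37 in PAR. No test compared the genes with each other.

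**Figure D3:**
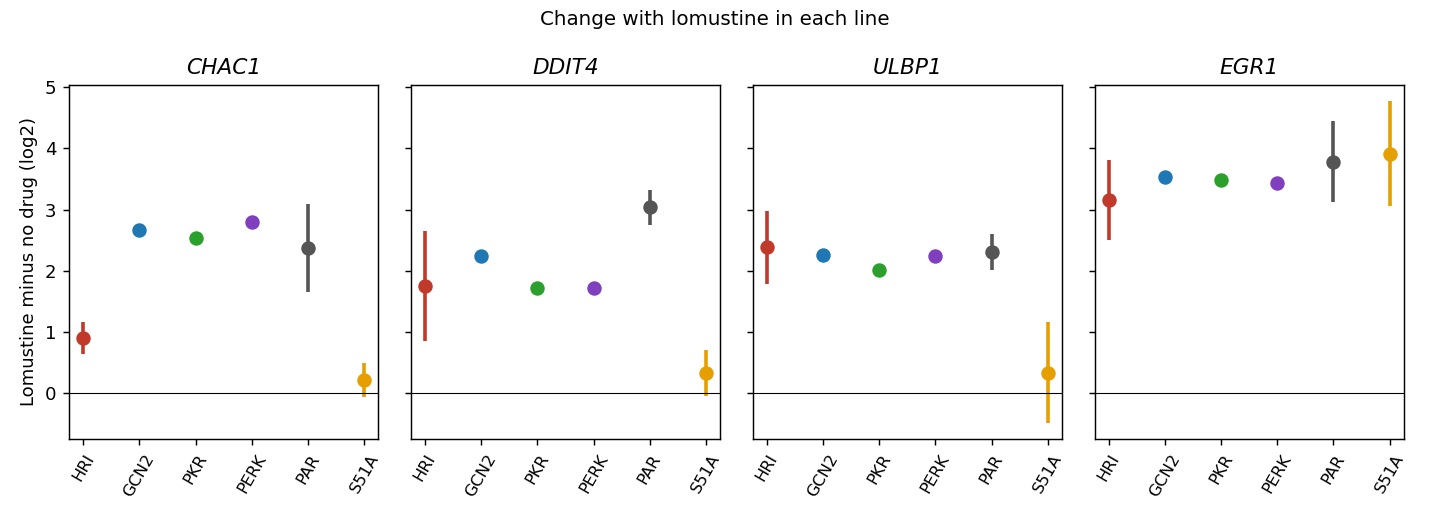
Change with lomustine (y axes, log2, treated minus untreated) of CHAC1, DDIT4, ULBP1 and EGR1 in each line (x axes). Points are mean changes, and vertical lines run from the lowest to the highest of the 4 differences between arrays where a line had 2 arrays in each arm; CHAC1 is 0.90 in HRI and 2.54 to 2.81 in GCN2, PKR and PERK.

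Immediate-early genes are switched on within minutes by growth factors and stress, without new protein synthesis. EGR1 (probe set 16989736), a zinc finger transcription factor of this class, had 6.89 and 7.88 in HRI with lomustine against 4.07 and 4.39 without drug. In GCN2, PKR and PERK it had 8.04, 7.65 and 7.17 with lomustine against 4.51, 4.16 and 3.73 without drug. The lomustine levels of HRI and of the other lines overlapped, as did the untreated ones. The change was 3.16 (8.91-fold; limma adjusted p = 0.0545) in HRI and 3.49 (11.2-fold; adjusted p = 0.00154) over the other lines, beside 3.78 in PAR and 3.91 in S51A. The interaction was -0.33 (95% interval -1.20 to 0.54) and ran from -0.99 without the arrays that stand apart to 0.17 without HRI lomustine A. Over the 42 tested members of the list, the median interaction was 0.02, and 20 (47.6%) were below 0, against 50.1% of all genes. The median change was 0.17 in HRI and 0.24 over the other lines. A change above 1 was seen in 5 members in HRI and in 8 over the other lines, and the share of all genes above 1 was not counted.

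DUSP1, a phosphatase of MAP kinases, had 6.34 and 7.06 in HRI with lomustine against 5.20 and 5.03 without drug. Its interaction of 0.16 was -0.11 without the arrays that stand apart and -0.37 with PAR in place of the other lines. JUN, an AP-1 subunit, had 4.66 and 6.90 in HRI with lomustine against 4.27 and 3.43 without drug. Its interaction of -0.56 changed sign with the HRI lomustine array left out, at -1.68 without B and 0.56 without A, and it was -1.26 without the arrays that stand apart. GADD45B, a stress sensor upstream of MAP kinases, had 5.81 and 7.55 against 4.65 and 4.42 in HRI, and 6.13, 5.36 and 4.62 against 4.51, 4.01 and 4.20 in GCN2, PKR and PERK. Its interaction was 1.02 (95% interval -0.45 to 2.49), 0.27 without the arrays that stand apart and -0.07 with PAR in place of the other lines. FOS, the partner of JUN, had an interaction of -0.29, which was -0.92 without those arrays and 0.13 without the GCN2 line. EGR3, a relative of EGR1, had 3.16 and 2.83 in HRI with lomustine against 3.19 and 3.32 without drug, and 3.82, 3.77 and 3.74 against 3.04, 3.32 and 3.49 in the other lines. The treated HRI arrays lay below the untreated ones and the treated arrays of the other lines above theirs (interaction -0.75, 95% interval -1.34 to -0.16; limma unadjusted p = 0.0181, adjusted p = 1). The interaction was -0.65 without the arrays that stand apart. In the list, 5 members (EGR3, EGR4, ATF3, IER2 and NR4A3) had all 4 HRI differences below those of the other lines (11.9%, against 4.95% of all genes).

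Heat shock genes, targets of the factor HSF1 that encode chaperones and their helpers, had medians of 0.24 in HRI and 0.14 over the other lines. Of 16 tested members, 14 had a change above 0 in HRI and 16 over the other lines. The share of all genes above 0 was not counted, but their median changes were -0.02 and -0.01. In the interaction, 5 members (31.25%) were below 0, against 50.1% of all genes, and the list's median was 0.05. DNAJB1, a helper of the chaperone HSP70, had 8.76 and 9.11 in HRI with lomustine against 7.64 and 7.64 without drug. The other lines, in the order GCN2, PKR and PERK, had 8.61, 8.85 and 8.95 with lomustine against 7.71, 7.82 and 7.64 without drug. Its interaction was 0.21 (95% interval -0.36 to 0.77), 0.03 without the arrays that stand apart and -0.27 with PAR in place of the other lines. BAG3, another HSP70 helper, and HSPA1L, of the HSP70 family, passed the test over the other lines (changes of 1.28 and 1.53), and their interactions were 0.02 and -0.07. With PAR in place of the other lines that of HSPA1L was 0.57. ZFAND2A, a zinc finger protein that binds the proteasome, had 5.74 and 6.85 in HRI with lomustine against 4.09 and 4.04 without drug, and 5.57, 5.48 and 5.49 against 4.09, 4.44 and 4.36 in the other lines. It was the only member with all 4 HRI differences above those of the other lines, with an interaction of 1.01 (95% interval 0.08 to 1.95; limma unadjusted p = 0.0372, adjusted p = 1) that was 0.49 without the arrays that stand apart.

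**Figure D4:**
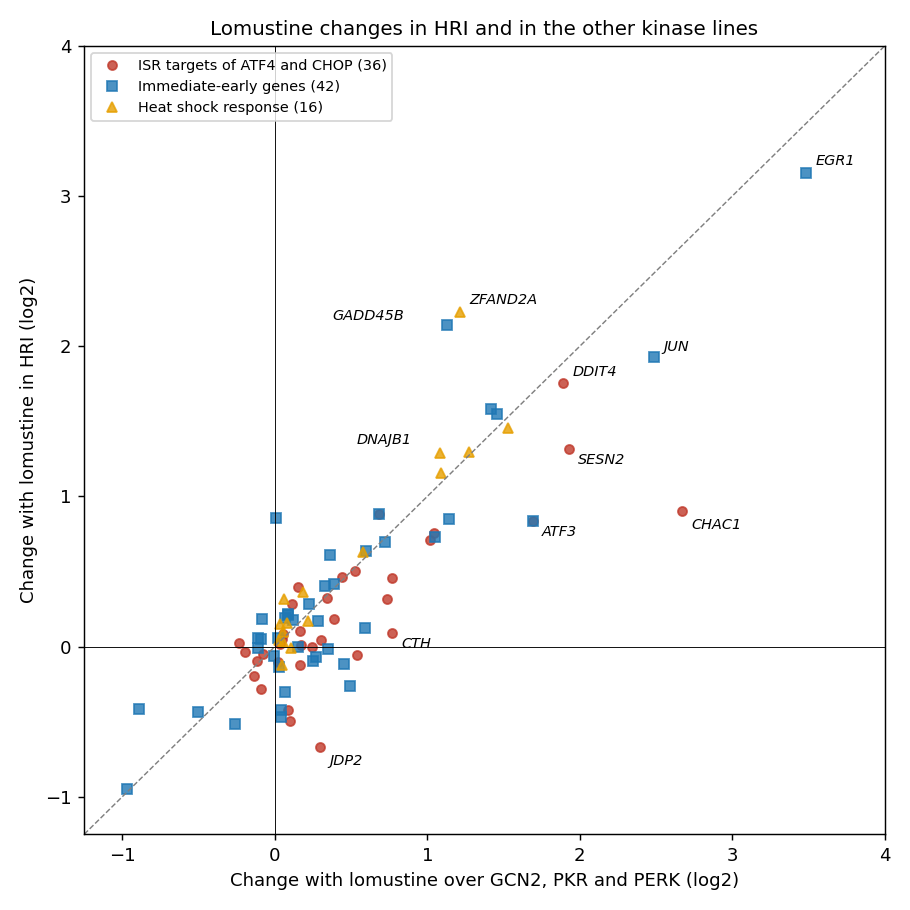
Change with lomustine in HRI (y axis, log2) against the mean change over GCN2, PKR and PERK (x axis, log2) for the tested members of 3 gene lists, 1 point per gene; ATF3 and PPP1R15A stand on both the first and the second list. The dashed line marks equal changes; CHAC1 lies farthest below it, at 0.90 against 2.67, and ZFAND2A and GADD45B lie above it.

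The 9 genes that rose over GCN2, PKR and PERK all had a change above 0 in HRI, and 6 of them a change above 1; since the interaction holds the same other-line values, nothing is read from its sign in these genes. ARRDC3, an arrestin-domain protein that acts in receptor trafficking, had 7.55 and 7.67 in HRI with lomustine against 6.44 and 6.08 without drug, and 8.06, 8.33 and 8.10 against 5.81, 6.15 and 5.83 in the other lines. Its change was 1.35 in HRI and 2.23 over the other lines (interaction -0.88, 95% interval -1.42 to -0.35), but 1.59 in PAR, so that with PAR in place of the other lines the interaction was -0.24. HSD17B7, of cholesterol and steroid synthesis, had changes of 0.61 and 1.40, with PAR at 0.85. MXD1, an antagonist of MYC, had 1.14 and 1.39. RAET1K, a pseudogene of the NKG2D ligand family, had 2.38 and 2.50 in HRI with lomustine against 2.51 and 2.17 without drug, and 2.97, 4.61 and 4.01 against 1.59, 1.52 and 1.60 in the other lines. Its interaction of -2.20 (limma adjusted p = 1) goes with untreated levels in the other lines below the median of all values. RNU12, the U12 small nuclear RNA of the minor spliceosome, was the gene that fell: it had 4.33 and 4.15 against 6.09 and 6.21 in HRI, and 3.83, 3.29 and 2.96 against 6.09, 5.32 and 5.77 in the other lines. Its change was -1.91 in HRI and -2.36 over the other lines.

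A set of response genes was taken from PAR, whose arrays the contrast did not use: the 12 genes highest and the 8 lowest with lomustine there. Of the 12, namely EGR1, DDIT4, TRAJ59, CHAC1, RN5S471, ULBP1, RN5S442, ATF3, GADD45B, SESN2, JUN and RN5S455, 11 had a change above 0 in HRI and 10 over the other lines. Their median change was 1.11 in HRI and 1.79 over the other lines, against -0.02 and -0.01 for all genes tested. How many of all genes had a change above 0 was not counted. An interaction below 0 was seen in 8 of the 12 (median -0.21), and in 50.1% of all genes. Of the 8 lowest in PAR, 2 had a change above 0 in HRI and 2 over the other lines, with medians of -0.23 and -0.12. Among ATF4 and CHOP targets, 14 were at least 0.5 higher with lomustine in PAR. Of these, 11 (78.6%) had an interaction below 0, with a median of -0.30, against 54.2% and -0.06 for the 413 genes of any kind that were at least 0.5 higher in PAR. All 4 HRI differences lay below those of the other lines in 4 of the 14 (28.6%), against 8.96% of the 413.

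The transcripts of the eIF2 kinases and of eIF2-alpha had small interactions, which does not show equal responses. The interaction was 0.09 for EIF2AK1 (95% interval -0.45 to 0.63), 0.17 for EIF2AK2, -0.21 for EIF2AK3, 0.01 for EIF2AK4 and 0.16 for EIF2S1, which encodes eIF2-alpha. DELE1, the mitochondrial protein that activates HRI, had 4.16 and 3.75 in HRI with lomustine against 4.39 and 4.33 without drug, and 4.30, 3.98 and 4.09 against 4.22, 3.72 and 3.90 in the other lines. Its interaction was -0.58 (95% interval -1.13 to -0.02; limma unadjusted p = 0.0427, adjusted p = 1). It was -0.34 without the arrays that stand apart and -0.79 without HRI lomustine A. HMOX1, heme oxygenase and a target of NRF2, had 5.14 and 5.16 in HRI with lomustine against 4.81 and 4.89 without drug. Levels in GCN2, PKR and PERK were 5.49, 5.57 and 5.56 with lomustine against 4.55, 4.54 and 4.27 without drug. HRI thus had the higher untreated and the lower treated levels, with no overlap, and a change of 0.30 against 1.09 over the other lines. The interaction was -0.79 (95% interval -1.29 to -0.29; limma unadjusted p = 0.00627, adjusted p = 1), and -0.84 without the arrays that stand apart. CPOX, an enzyme of heme synthesis, had 4.69 and 4.81 in HRI with lomustine against 4.41 and 4.46 without drug, and 4.06, 3.87 and 3.76 against 4.35, 4.50 and 4.25 in the other lines. Its interaction was 0.79 (95% interval 0.29 to 1.29; adjusted p = 1) and 0.29 with the mean of its probe sets in place of the brightest. The 20 tested genes of heme metabolism had a median interaction of -0.01.

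Of 16 tested NF-kB targets, 13 (81.3%) had an interaction below 0, with a median of -0.25, a median change of -0.15 in HRI and of 0.08 over the other lines, and 3 (18.8%) had all 4 HRI differences below those of the other lines. Over all genes tested the shares were 50.1% and 4.95%. NFKBIE, an inhibitor of NF-kB, had 3.43 and 3.0 in HRI with lomustine against 3.39 and 3.84 without drug, and 3.87, 4.08 and 3.72 against 3.0, 3.75 and 2.93 in the other lines. Its interaction was -1.06 (95% interval -1.76 to -0.36; limma unadjusted p = 0.00797, adjusted p = 1), -1.07 without the arrays that stand apart and -0.57 with PAR in place of the other lines. CXCL2, a chemokine, had -0.82, and -0.52 without the arrays that stand apart.

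The genes with the smallest p in each direction, none of which passed, were mostly dim. With a larger change in HRI they were RN5S176 (1.46), TRAJ16 (1.40), LINC00243 (1.47), RNF5P1 (1.45) and MIR4316 (1.49), which are small RNA, T cell receptor segment, noncoding RNA and pseudogene entries. RN5S176 had 4.12 and 3.80 in HRI with lomustine against 2.95 and 3.04 without drug, and 2.83, 2.92 and 2.78 against 3.38, 3.36 and 3.28 in the other lines. With PAR in place of the other lines the interaction turned to -0.46 in RN5S176 and was 0.19 in TRAJ16, 0.54 in RNF5P1, 0.54 in MIR4316 and 1.09 in LINC00243. Such probe sets can share sequence with copies elsewhere, and their values are uncertain. With a smaller change in HRI they were CHAC1, BMS1P4 (-1.27), RAET1K (-2.20), CYB561D2 (-1.14) and ZNF767P (-0.99). With PAR in place, CYB561D2 had -0.20. CHAC1 was the brightest of these 10 after lomustine in the other lines.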

How the data were processed

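Affymetrix arrays measured total RNA of HAP1 lines, and 10 of 24 arrays enter the contrast. The values were deposited by the authors as log2 units made with RMA and affy, per the submitters' processing notes. Versions and genome build are not given in the sources used here. Arrays give no read depth, and their number limits the precision.

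Of 53617 probe sets, 23558 had 1 symbol in the platform annotation, giving 22109 genes. Of the 618 genes with several probe sets, the brightest was kept. The filter required a value at or above 2.42, the overall median, on at least 2 of all 24 arrays. The fit (R 4.3.3, limma 3.58.1, two-sided, Benjamini-Hochberg over all genes, threshold 0.05) had HRI arms and line as a block in the other lines, with 4 residual degrees of freedom. It pools the spread between HRI arrays of an arm with that between the differences of GCN2, PKR and PERK. Fits were checked on simulated data with independent noise of the same spread on every array. No arrays that stand apart were simulated, so this does not check the fit against them. Letters A and B were not used to pair HRI arrays, since their differences correlated with r = -0.561 over genes.

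Genes named are the eIF2 kinases, EIF2S1, ATF4, EGR1, DDIT3 and PPP1R15A, the 5 smallest p in each direction, response genes taken from PAR, the 2 smallest p of each list, the genes called over the other lines and members of the 3 main lists and of the eIF2 circuit. The members and lists were chosen with earlier results of these data known, and DUSP1 and the other members described were chosen after their values were seen. SA100 arrays carry an agent field that names lomustine, while their titles and treatment text point to sodium arsenite, and they were grouped by title. Alternatives changed filter, probe set rule, normalization, prior, arrays, lines and pairing.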

Additional observations from a re-analysis of the deposited data

Results flagged for a closer look

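In 17 of 87 named genes every HRI difference ran one way and every difference of GCN2, PKR and PERK the other way. The 87 leave out genes named only as called over the other lines or as members of the main lists or the eIF2 circuit. Of the 17339 genes tested, 457 showed this pattern (2.64%). Many named genes were picked for a small p of the interaction, so the choice of genes itself favours this pattern and nothing is read from the share. In 217 genes HRI was the higher and in 240 the lower. For the named genes the interaction was tested with limma, and none passed. The interaction was above 0 in CCNE2 (0.67), a cyclin of the entry to S phase, CPOX (0.79), LINC00243 (1.47), MIR4316 (1.49), RN5S176 (1.46), RNF5P1 (1.45), SCARNA18 (1.13) and TRAJ16 (1.40). It was below 0 in BMS1P4 (-1.27), CYB561D2 (-1.14), DELE1 (-0.58), EGR3 (-0.75), FANCE (-0.45), FANCG (-0.65), H2AC6 (-0.75), ZNF174 (-0.92) and ZNF767P (-0.99). With PAR in place of the other lines the sign turned in RN5S176 (-0.46), SCARNA18 (-0.17) and FANCE (0.05). Under the same setting the value was 0.08 in CCNE2, 0.19 in TRAJ16, 0.54 in RNF5P1, 0.54 in MIR4316, -0.20 in CYB561D2, -0.19 in ZNF174 and -1.22 in H2AC6. FANCE and FANCG encode parts of the Fanconi anaemia complex, which acts on DNA crosslinks. FANCG had 4.57 and 4.63 in HRI with lomustine against 5.01 and 5.01 without drug, and 5.14, 5.06 and 4.97 against 4.73, 4.92 and 4.79 in GCN2, PKR and PERK.

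By title and treatment text, SA100 points to sodium arsenite, given at 100 µM for 2 h. The array titled SA100, which the contrast does not use, gave CHAC1 a level of 7.71 in HRI, above the 5.06 and 4.80 without drug. This is a change of 2.78, beside 3.90, 4.13 and 3.90 in GCN2, PKR and PERK, 3.16 in PAR and 1.00 in S51A. With lomustine the changes were 0.90 in HRI, 2.67, 2.54 and 2.81 in those lines, 2.37 in PAR and 0.22 in S51A. The SA100 arrays are 1 per line, with no replicate check, and share their untreated arrays with the lomustine changes.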

How the results depend on the processing

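The interaction gave 0 genes in all 19 alternatives, and none of the 178 single genes passed in any of 3342 gene and setting pairs. No tested result changed sign while past the threshold. The HRI response, 0 genes in the fit described, gave 1 with quantile normalization, 2 with arrays centred on their medians, 6 with a trended robust prior and 2 without the 2 HRI arrays that stand apart, a setting added after seeing the data; leaving out 1 HRI array gave 0 to 2. The other-line response, 10 genes, gave 18 with quantile normalization, 20 with the trended prior, 3 with all 24 arrays, 5 without GCN2, 5 without PKR, 4 without PERK and 46 without the 2 HRI arrays; leaving out 1 HRI array gave 10 to 21. With the letters as a replicate block the HRI response gave 1 gene and the interaction 0. With the crossed pairing, chosen after seeing the data, they gave 17 and 0. The changes over the other lines are the same with or without the HRI arrays, which enter that response only through the estimate of spread. Causes of the shifts were not tested further. With 4 residual degrees of freedom and 1 array per arm in each other line, a missed threshold does not show equal responses.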

Other observations

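Over all genes tested 50.1% had an interaction below 0, and other lists lay on both sides of that share. Of 26 tested genes for the repair of alkylated and crosslinked DNA, 16 were below 0 (median -0.15), and 0 passed. Of 26 p53 targets, 12 were below 0 (median 0.01). MDM2, which degrades p53, had a change of -0.32 in HRI and of -0.78 over the other lines. GADD45A, a growth arrest gene, had 0.53 and 0.01, but its interaction was -0.06 with PAR in place of the other lines. Of 21 genes of endoplasmic reticulum stress, 5 (23.8%) were below 0 (median 0.08). HSPA5, the chaperone BiP, had -0.18 in HRI and -0.65 over the other lines. Its interaction was 0.46, and 0.11 with PAR in place of the other lines. Of 21 NRF2 targets, 16 (76.2%) were below 0 (median -0.05), with HMOX1 lowest. Of 19 aminoacyl-tRNA synthetases, many of them ATF4 targets, 11 were below 0 (median -0.01), and none lay below -0.39. Of 27 histone genes, 19 (70.4%) were below 0 (median -0.07), and 5 (18.5%) had all 4 HRI differences below those of the other lines, against 4.95% of all genes tested. Of 10 interferon response genes 8 (80%) were below 0 (median -0.16), and of 21 genes of G2 and mitosis 5 (23.8%) were (median 0.03).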
